A study of Mus musculus with 4 samples.

Results

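The clusters described here are CpG-dense stretches of the mouse genome at the ends of long non-coding RNA (lncRNA) genes that stand apart from protein-coding genes. A cluster was a run of 20 or more CpGs that spanned 200 bp or more, in which neighbouring CpGs lay no more than 50 bp apart, built from the CpG positions listed in either of 2 methylation tables. Of 22566 such clusters on chromosomes 1 to 19 of mm10, 319 had their midpoint within 1 kb of either end of an annotated lncRNA gene and more than 5 kb from every protein-coding gene. They lay at 271 of the 12408 lncRNA genes annotated on those chromosomes. The choice used position and CpG density only, never a methylation value. One of the 319, at AI506816, held 27 CpGs but none with 5 or more calls in both tables, so 318 clusters were measured.

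The cells were mouse germline stem (GS) cells, self-renewing cultures of spermatogonial stem cells, derived from testis and labelled wild type, kept in culture for some 5 months (labelled 5M-GS) or some 60 months (labelled 60M-GS). Both ages came from the transgenic strain C57BL/6 Tg14(act-EGFP)OsbY01, called Green, on a DBA/2 background, so both carried the EGFP transgene, and both grew in medium with human FGF2, rat GDNF and fetal bovine serum. Methylation was read by post-bisulfite adaptor tagging (PBAT), a whole-genome bisulfite method in which adaptors are joined after conversion, and the 2 replicates of each age were pooled in 1 table. How many animals or separate cultures the replicates represent is not stated in the labels used here, and every comparison below is between 2 pooled libraries, not between culture ages with a measured spread.

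Depth was alike in the tables, with 468121185 calls over 19371838 CpGs (median 21 per CpG) for 5M-GS and 471693518 calls over 19341319 CpGs (median 22) for 60M-GS. The 318 clusters had a median of 21.8 calls per CpG in the former and 22.1 in the latter. By chromosome, the 60M-GS to 5M-GS ratio of calls over these clusters ranged from 0.825 on chromosome 15 and 0.888 on chromosome 16 to 1.08 on chromosome 13. The clusters at germ cell genes were nearly unmethylated in both tables: Ddx4 stood at 2.67% and 0.686%, and 3 clusters at Dazl at up to 3.68% and 2.52%. These germ cell genes were taken because their promoters are known to be methylated in most somatic cells. Other clusters, at Sox9 and Wt1, which mark testis somatic cells, were also at or below 1.11% in both. The levels at Sox9 and Wt1 were described only and do not tell germ cells from somatic cells. Gata4 and Cyp11a1 had no cluster, and the share of somatic cells in the cultures was not tested. Intervals given below are 95% Wilson or Newcombe intervals that cover counting error only, and they treat calls on the same read as independent, which they are not.

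Cytosine methylation in mammals sits mostly on CpG dinucleotides, and most of the genome's CpGs are methylated. Dense CpG clusters, or CpG islands, are the main exception: they often hold promoters and usually stay free of methylation, while methylation of a promoter island is associated with silencing of its gene. Many lncRNA genes start from such islands, some as divergent partners of developmental genes and others far from any coding gene, and the function of most is not known.

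The bases themselves are shown for 5 gene starts that carry the contrasts below. They are RefSeq promoter windows of assembly GRCm38.p6 (250 bases before to 50 after the gene's start), read 5′ to 3′ on the gene's strand, with each CpG dinucleotide in capitals and all other bases in lower case. The windows are 1700020N01Rik at chr10:21592895-21593194 (plus strand), whose cluster gained methylation, LOC115487747 at chr11:113173034-113173333 (minus strand), another gain, Gm24463 at chr9:89066579-89066878 (plus strand), the loss, and Miat at chr5:112228899-112229198 (minus strand) and Mir9-3hg at chr7:79499776-79500075 (plus strand), which stayed nearly unmethylated.
1700020N01Rik: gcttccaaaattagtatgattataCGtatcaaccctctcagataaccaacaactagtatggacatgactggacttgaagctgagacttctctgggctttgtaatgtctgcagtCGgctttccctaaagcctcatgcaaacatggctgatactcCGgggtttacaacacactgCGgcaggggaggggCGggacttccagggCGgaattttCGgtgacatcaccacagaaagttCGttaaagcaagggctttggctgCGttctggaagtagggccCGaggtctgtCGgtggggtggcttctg
LOC115487747: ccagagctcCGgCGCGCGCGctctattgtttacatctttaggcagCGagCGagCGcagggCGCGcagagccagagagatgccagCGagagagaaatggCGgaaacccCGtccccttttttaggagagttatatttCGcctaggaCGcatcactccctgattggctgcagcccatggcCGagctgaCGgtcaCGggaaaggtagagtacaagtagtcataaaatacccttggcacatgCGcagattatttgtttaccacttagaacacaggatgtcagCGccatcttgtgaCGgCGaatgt
Gm24463: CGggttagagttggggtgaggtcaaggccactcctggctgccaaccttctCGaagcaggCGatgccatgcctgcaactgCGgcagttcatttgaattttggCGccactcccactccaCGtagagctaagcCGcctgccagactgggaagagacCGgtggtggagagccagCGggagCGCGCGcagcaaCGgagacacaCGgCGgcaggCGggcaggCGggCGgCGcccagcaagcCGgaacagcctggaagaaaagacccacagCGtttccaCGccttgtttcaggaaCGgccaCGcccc
Miat: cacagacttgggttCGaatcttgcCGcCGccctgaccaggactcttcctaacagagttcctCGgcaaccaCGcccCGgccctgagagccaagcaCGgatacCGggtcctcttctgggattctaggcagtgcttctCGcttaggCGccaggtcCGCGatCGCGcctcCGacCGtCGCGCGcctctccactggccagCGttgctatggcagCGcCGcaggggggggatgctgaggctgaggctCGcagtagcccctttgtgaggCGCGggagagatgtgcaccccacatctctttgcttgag
Mir9-3hg: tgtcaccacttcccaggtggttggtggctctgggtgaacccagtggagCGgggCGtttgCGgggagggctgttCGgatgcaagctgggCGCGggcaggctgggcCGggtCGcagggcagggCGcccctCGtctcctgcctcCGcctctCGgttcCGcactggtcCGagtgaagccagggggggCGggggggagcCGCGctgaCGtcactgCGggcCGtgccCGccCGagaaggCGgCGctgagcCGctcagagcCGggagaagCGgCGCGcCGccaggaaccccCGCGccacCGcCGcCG

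These windows differ in CpG number as well as in methylation. The 1700020N01Rik window holds 11 CpGs, and 0.901% of its 222 calls were methylated in 5M-GS against 67.5% of 329 calls in 60M-GS. Single CpGs there ran from 0% to 7.69% in 5M-GS, with 9 of the 11 at 0, and from 58.3% to 80.8% in 60M-GS, so the ranges of the tables did not overlap. In the LOC115487747 window 11 of 22 CpGs were usable, and they ran from 12% to 50% in 5M-GS and from 69.2% to 92.3% in 60M-GS. The Gm24463 window moved the other way, from 28.5% of 785 calls to 1.2% of 667 calls. Of its 23 usable CpGs, 19 were lower in 60M-GS, 4 were at 0 in both tables and none was higher. Other promoter windows of Gm24463, not printed here, went from 27.3% to 1.78% and from 60.6% to 14.8%. The Miat window, with 25 CpGs, stood at 0.49% and 0.593%, and the Mir9-3hg window, with 35, at 0.249% and 1.41%.

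Most stand-alone lncRNA ends were unmethylated at both ages. Their median level was 0.623% for 5M-GS and 0.595% for 60M-GS, and the median difference was 0.0519 points. Over all 22500 autosomal clusters measured the medians were 0.567% and 0.6%, with a median difference of 0.0881 points. Of the 318 lncRNA-end clusters, 285 were under 10% in both tables and 257 were under 2% in both. A level under 10% in 5M-GS was found for 93.1% of them, against 85.1% of all autosomal clusters. The 2 levels lay within 2 points of each other for 274 clusters, or 86.2%. Single clusters lay on both sides of equality: 171 were higher in 60M-GS and 147 lower. In 5M-GS 13 clusters had no methylated call at all, as did 11 in 60M-GS. Their call numbers allow levels of up to 0.29% to 1.33% at these clusters.

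**Figure D1:**
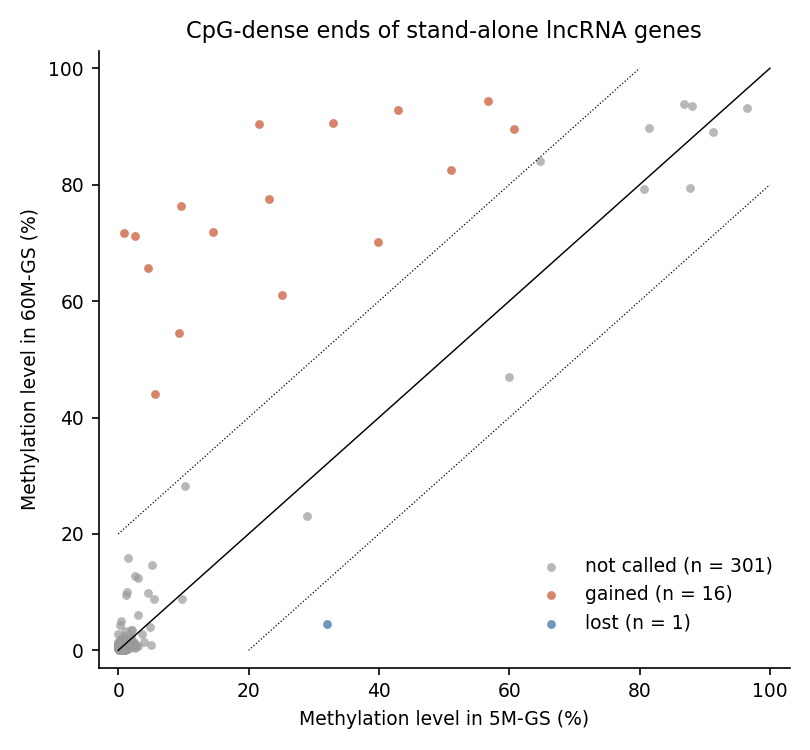
Methylation level (% of calls) of each of the 318 clusters in 5M-GS (x axis) and 60M-GS (y axis), with points coloured by call, a solid line of equality and dotted lines at a difference of 20 points. Most points lie in the lower left corner, 16 lie above the upper dotted line and were gained, and 1 lies below the lower dotted line and was lost.

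A cluster was called gained or lost when its summed calls differed between the tables by Fisher's exact test, adjusted over all clusters, at an adjusted p under 0.05 and by at least 20 points. By this rule 16 of the 318 lncRNA-end clusters were gained in 60M-GS, 5.03%, against 5.19% of all autosomal clusters (1168 of 22500). One was lost, 0.314%, against 0.12% of all autosomal clusters (27 of 22500). The share gained was therefore near the background. When each cluster's calls were divided by its usable CpGs before the test, which treats the calls at neighbouring CpGs as if they came from the same reads, 11 of the 318 were gained, 3.46%, against 3.09% of all autosomal clusters, and 0 were lost. At any size of difference, 33 clusters were higher, 10.4% against 10.4%, and 7 were lower, 2.2% against 1.29%. The share gained moved with the definition of a cluster. With at least 30 CpGs it was 5 of 182, 2.75% against 2.08% of all autosomal clusters so defined, and with gaps of up to 100 bp it was 172 of 1076, 16% against 11.8%.

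The share called differed with the starting level, as it did over all clusters. Among clusters under 10% in 5M-GS, 6 of 296 were gained, 2.03%, against 2.54% of all autosomal clusters in that class. From 10% up to 30%, 4 of 6 were gained, and from 30% up to 70%, 6 of 9 were gained and 1 was lost. The shares gained in those classes over all autosomal clusters were 70.2% and 71%, and 2 of 363 and 16 of 559 were lost. None of the 7 clusters at 70% or more was gained or lost. Over all autosomal clusters of that class, 29 of 2427 were gained, 1.19%, and 9 were lost, so the 7 are near the background. Of the 15 lncRNA-end clusters between 10% and 70% in 5M-GS, 11 were called and 4 were not.

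The 6 gains that started under 10% included the widest change of all. At Gm46178 (chr1:191125843-191126160, outside the gene's 3′ end, 17.1 kb from Batf3) 5M-GS had 0.917% of 218 calls methylated and 60M-GS 71.7% of 467 calls, which is 70.8 points higher (66.0 to 74.8, adjusted p = 7.46e-80 by Fisher's exact test). It was higher at 18 of 19 usable CpGs, and 10 of the cluster's 29 CpGs were left out for low depth. The table with the higher level held 2.14 times as many calls there, and the part of this imbalance in the difference was not tested. At 1700020N01Rik (chr10:21593008-21593583, inside the 5′ end, 197 kb from Aldh8a1) it was 2.65% of 791 calls and 71.2% of 836 calls, or 68.5 points more (65.1 to 71.6, adjusted p = 7.72e-208 by Fisher's exact test). All 30 CpGs of that cluster were higher in 60M-GS.

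The other 4 of these gains reached intermediate to high levels. Gm36023 (chr6:114094326-114094759, inside the 5′ end, 36.7 kb from Slc6a11) went from 9.68% of 630 calls to 76.3% of 558 calls, by 66.7 points (62.2 to 70.6, adjusted p = 1.41e-129 by Fisher's exact test). The cluster at 9330188P03Rik (chr14:105589234-105589908, strand not given in the table used, 280 kb from Ndfip2) went from 4.59% of 719 calls to 65.7% of 787 calls, by 61.1 points (57.3 to 64.6, adjusted p = 4.13e-151 by Fisher's exact test). All CpGs of both clusters, 22 and 29, were higher in 60M-GS. Gm30298 (chr12:112700613-112701194, outside the 3′ end) reached only 54.5% of 752 calls from 9.4% of 670 calls, and Gm42092 (chr11:104072721-104073163, inside the 5′ end, 57.5 kb from Crhr1) reached 44.1% of 1150 calls from 5.59% of 1144 calls. Their differences were 45.1 points (40.8 to 49.2) and 38.5 points (35.3 to 41.6). Gm30298 passed on divided calls at an adjusted p of 0.0299 by Fisher's exact test, and Gm42092 did not, at 0.0669.

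A second set of 4 gains started between 10% and 30%. Gm35062 (chr10:120688498-120689013, inside the 5′ end, 92.3 kb from Msrb3) rose from 21.6% of 707 calls to 90.4% of 805 calls, by 68.8 points (64.9 to 72.2, adjusted p = 2.62e-175 by Fisher's exact test), with all 26 CpGs higher. Gm38930 (chr6:149353562-149353874, 18.1 kb from Resf1) rose from 14.5% of 585 calls to 71.9% of 537 calls, by 57.4 points (52.3 to 61.8). LOC115487747 (chr11:113173027-113173482, outside the 5′ end), whose start is printed above, rose from 23.2% of 358 calls to 77.5% of 418 calls, by 54.3 points (48.0 to 59.9). Only 19 of its 32 CpGs were usable, and its promoter window shares 30-base words with the windows of 13 other genes, and whether its calls include reads of near-identical copies was not tested.

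The fourth of that set, AY036118 (chr17:39846534-39848823, outside the 3′ end), stood apart from the other gained clusters by depth. It carried 322428 calls over 216 CpGs in 5M-GS and 299024 in 60M-GS, or 1493 and 1384 calls per CpG, where the other gained clusters had 11.5 to 36.1 and 18.1 to 31.3. Its level went from 25.2% to 61.0%, and 212 of the 216 CpGs were higher. No repeat annotation was used here, so calls from this lncRNA end and from any further copies of its sequence cannot be told apart, and the level may be that of pooled copies. Without it 15 of 317 clusters were gained, 4.73%.

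The remaining 6 gains were already part methylated in 5M-GS. Gm46174 (chr1:178299320-178299692) rose from 43.0% to 92.8%, 4933422A05Rik (chr9:35281533-35281860, inside the 5′ end, 5.74 kb from Rpusd4) from 32.9% to 90.6%, and Gm26654 (chr3:96401790-96402291, inside the 3′ end) from 56.8% to 94.4%. All 22, 24 and 44 CpGs of these 3 clusters were higher in 60M-GS. The 3 smallest gains were Gm41562 (chr17:30945715-30946162), Gm40164 (chr3:145632427-145632806, 14.4 kb from Ccn1) and Gm38868 (chr6:100471250-100471535), with differences of 31.5 points (26.9 to 35.9), 30.3 points (24.5 to 35.7) and 28.7 points (23.6 to 33.5). None of these last 3 passed on divided calls by Fisher's exact test, with adjusted p of 0.133, 0.675 and 1, and Gm26654 did not either, at 0.057.

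**Figure D2:**
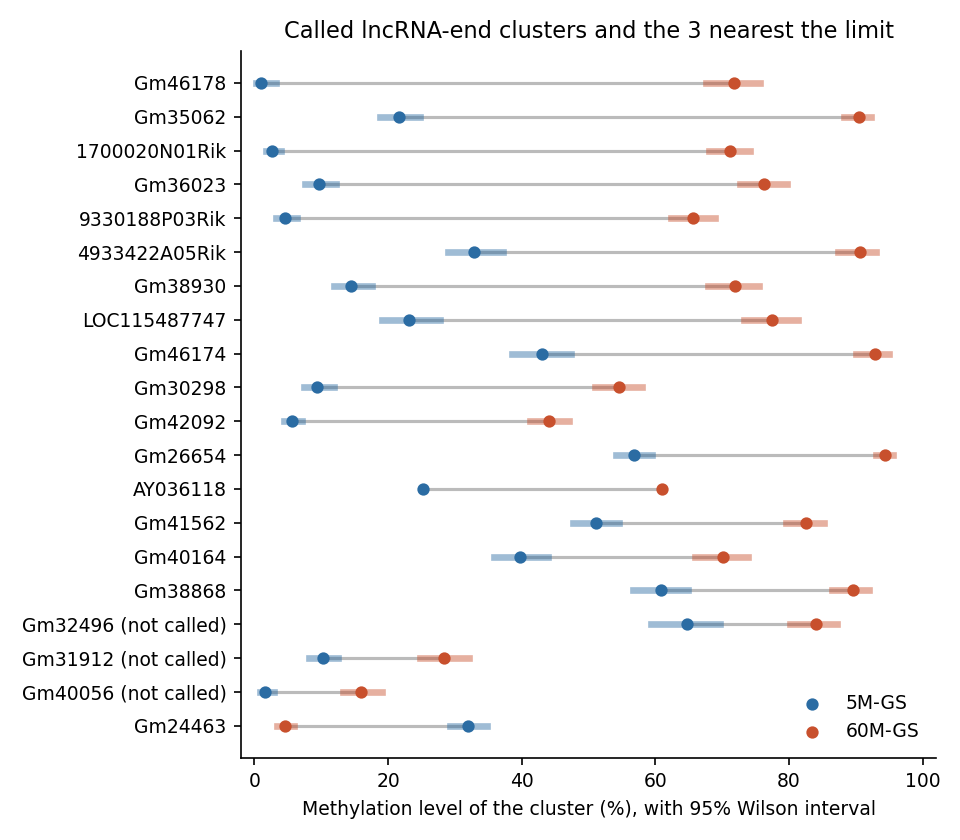
Methylation level (%) of the 16 gained clusters, the 3 clusters nearest the 20-point limit that were not called, and the lost cluster Gm24463, in 5M-GS (blue) and 60M-GS (red), with bars for 95% Wilson intervals of the summed calls. The 16 gained clusters start between 0.917% and 60.8% and end between 44.1% and 94.4%, and Gm24463 alone runs the other way, from 32.0% to 4.52%.

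Over the 15 gains other than AY036118, 5M-GS levels ran from 0.917% to 60.8% with a median of 21.6%, and 60M-GS levels from 44.1% to 94.4% with a median of 76.3%. Of their 386 usable CpGs, 382 were higher in 60M-GS, and in 11 of the 15 every CpG was higher. These counts follow in part from the call. Neighbouring CpGs can also share reads, so the CpGs are not independent sites. All 16 lay on 9 chromosomes, and the highest adjusted p among the 15 was 1.16e-22 by Fisher's exact test, at Gm40164. The 40 lncRNA genes with more than 1 cluster held 88 clusters, of which 86 were under 10% in 5M-GS and 0 were called, where 5.19% of all autosomal clusters and 2.54% of those under 10% were gained. By position, 8 of 212 clusters at a 5′ end were gained (3.77%), 5 of 38 at a 3′ end (13.2%) and 3 of 68 at genes whose strand was not given (4.41%). AY036118, set apart above by its depth, is among the 5 at a 3′ end. The positions also differed in level, with 197, 29 and 59 of these clusters under 10% in both tables. The difference between the shares gained was not tested.

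The single loss was at Gm24463 (chr9:89066535-89067190, inside the 5′ end, 17.8 kb from Trim43b), with 32.0% of 1102 calls methylated in 5M-GS against 4.52% of 1017 calls in 60M-GS. It fell by 27.5 points (-30.5 to -24.5, adjusted p = 8.92e-64 by Fisher's exact test), and none of its 38 usable CpGs was higher in 60M-GS. On divided calls the adjusted p by Fisher's exact test was 0.316. Usable CpGs around Gm24463 were few and uneven. Before the cluster, the CpG 413 bp from its midpoint went from 45.45% to 0% and the one at 396 bp from 28.57% to 14.29%, while beyond the cluster, from 887 to 965 bp, CpGs were at 83.33% or more in both tables. Promoter windows of this gene share 30-base words with the windows of 4 or 5 other genes, and whether its calls include reads of copies was not tested.

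**Figure D3:**
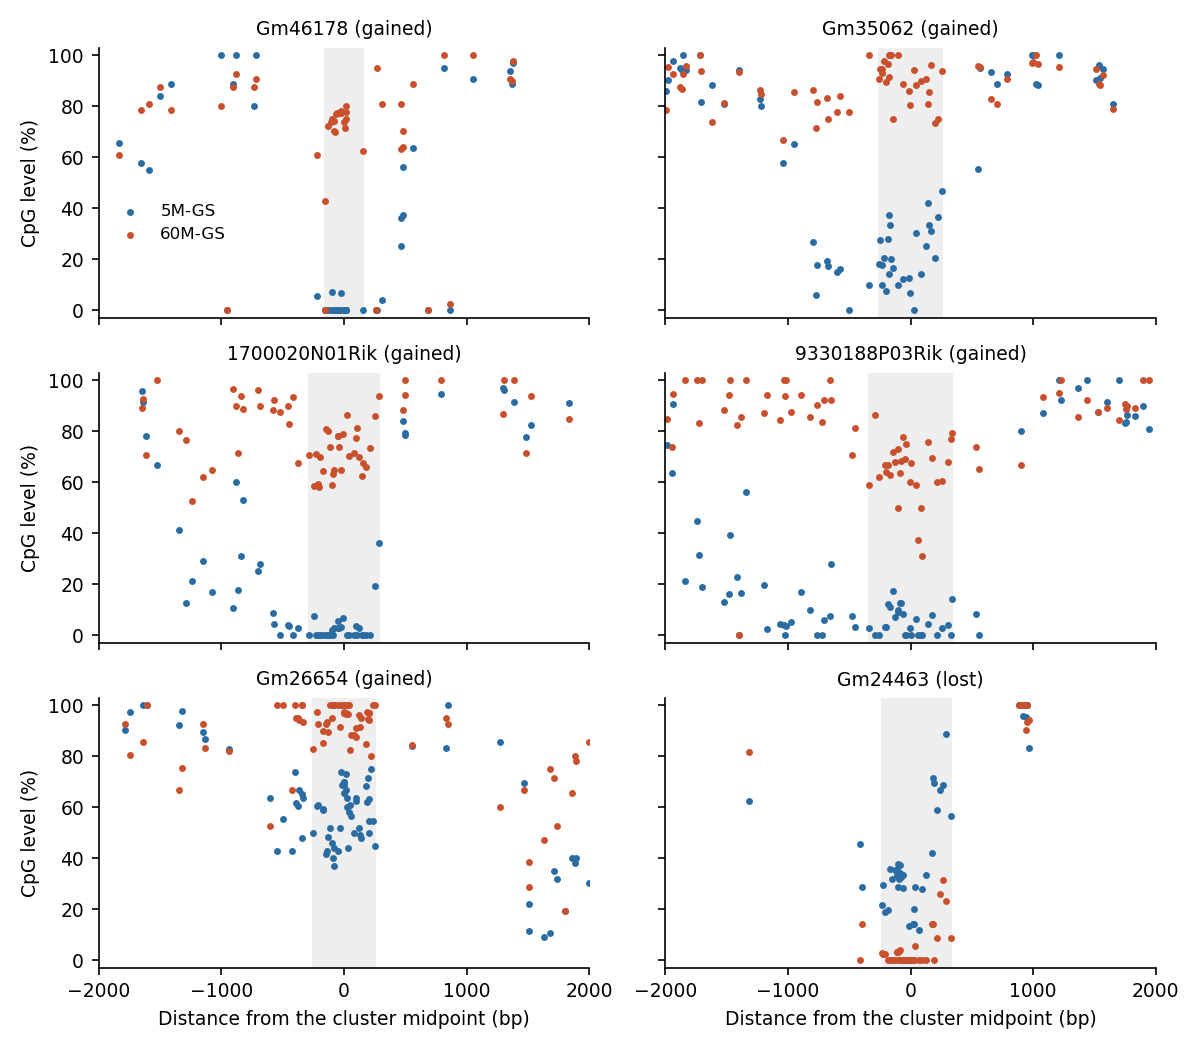
Level (%) of each usable CpG within 2000 bp of the cluster midpoint in 5M-GS (blue) and 60M-GS (red) for 5 gained clusters and the lost cluster Gm24463, with the cluster shaded. Within the shading of 1700020N01Rik, 9330188P03Rik, Gm35062 and Gm26654 every red point lies above the blue one of the same CpG, and in Gm24463 none does.

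The 20-point limit did not split a dense group of clusters. Among clusters higher in 60M-GS, none had a difference between 19.3 and 28.7 points, and among those lower, none lay between the loss at Gm24463 and Gm51701, which was 13 points lower. Just under the limit lay Gm32496 (chr3:8632141-8632492, 31.0 kb from Hey1), from 64.7% to 84.0%, Gm31912 (chr19:56105391-56105802, 172 kb from Tcf7l2), from 10.2% to 28.3%, and Gm40056 (chr3:58089478-58089907, 242 kb from Pfn2), from 1.54% to 15.9%. Their differences were 19.3, 18.2 and 14.4 points. Smaller differences from an unmethylated start, picked after their values were seen, included Gm34128 (2.61% to 12.8%), Gm28578 (5.25% to 14.7%), Gm38568 (3.05% to 12.4%) and Gm26520 (1.16% to 9.48%). Below the line of equality, Gm51701 stood at 59.9% and 46.9%, on 90.3 and 80.5 calls per CpG. The promoter window of that gene shares 30-base words with 11 other genes' windows. Usable CpGs of the window ran from 65.4% to 87.8% in 60M-GS, above the level of this cluster. In all, 17 clusters were higher and 6 lower at an adjusted p under 0.05 by Fisher's exact test without reaching 20 points, and none of these passed on divided calls.

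At 70% or more lay 7 clusters in 5M-GS and 20 in 60M-GS. Of the 7, Gm51459 (81.4% and 89.8%), Gm30397 (88% and 93.5%) and Gm36905 (86.8% and 93.9%) were higher in 60M-GS, while Gm12827 (91.3% and 89.1%), Gm40271 (96.5% and 93.2%), Gm20110 (87.7% and 79.4%) and another cluster of Gm51701 (80.7% and 79.3%) were lower. None of the 7 was lower by 20 points, and their 5M-GS levels left no room for a gain of that size. The promoter windows of Gm20110 and Gm51701 share 30-base words with the windows of 13 and 11 other genes. For Gm20110 these include the LOC115487747 window printed above. Whether the calls at these clusters include reads of copies was not tested. Of the 16 gained clusters, 12 reached 70% or more in 60M-GS.

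The DNA around the gained clusters was mostly methylated at both ages. Within 2 kb on each side, the 15 gains other than AY036118 had a median of 68.3% for 5M-GS and 84.3% for 60M-GS, and this flank level was higher in 60M-GS for 13 of the 15. The flank was also higher in 60M-GS for 178 of the 285 clusters under 10% in both tables. Of all calls, 72.4% were methylated in the 5M-GS table and 76.3% in the 60M-GS table. For the 15 gains, the median gap between flank and cluster went from 43.8 points to 1.74 points. At 1700020N01Rik the upstream side went from 27.5% to 82.9% and the downstream side from 87.7% to 91.1%. The length of the low stretch around each cluster was measured outward to the first 3 CpGs in a row at 50% or more. Its median went from 785 bp to 0 bp, and it was shorter in 14 of the 15. Both changes follow in part from the call, since the gap and the stretch include the cluster's own CpGs. At 9330188P03Rik, with the widest stretch of the gains apart from AY036118, it went from 2397 bp to 95 bp.

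The 285 clusters under 10% in both tables kept a low stretch that was similar but slightly shorter in 60M-GS. Its median went from 2572 bp to 2332 bp, and the median change was -32 bp. It was shorter in 147 clusters, longer in 64 and equal in 74. It shortened by more than 500 bp in 47 and lengthened by more than 500 bp in 26. Their flanks within 2 kb had median levels of 27.2% and 29.8%.

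**Figure D4:**
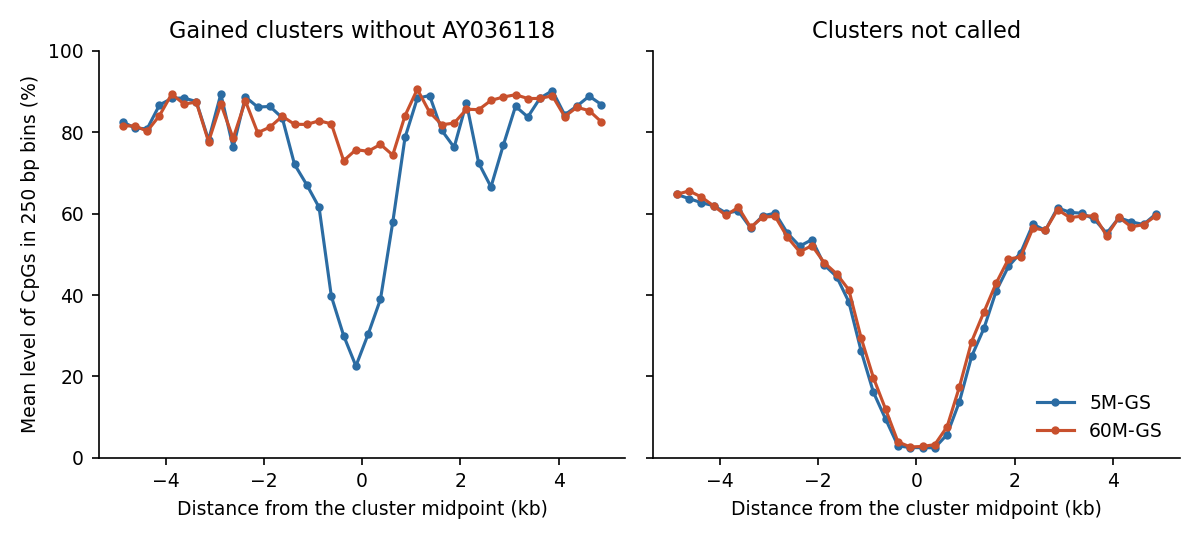
Mean level (%) of usable CpGs in bins of 250 bp by distance from the cluster midpoint, in 5M-GS (blue) and 60M-GS (red), for the 15 gained clusters without AY036118 and for the 301 clusters not called. In the bin just before the midpoint the gained clusters went from 22.55% to 75.69%, and the clusters not called from 2.51% to 2.67%.

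The lncRNA genes of 7 hand-written lists were nearly unmethylated in both tables. The lists were of imprinted, nuclear, miRNA host, small RNA host, developmental, pluripotency, and p53 and oncogene-linked lncRNAs. They held 145 symbols, of which 101 were annotated as lncRNA genes and 21 had a cluster of the kind studied. All 28 clusters of these 21 genes were at or below 1.72% in 5M-GS and 1.43% in 60M-GS, none was gained or lost, and their median difference was -0.0374 points. With 5.19% of all autosomal clusters gained, few gains would fall in 28 clusters, so little can be read from their absence.

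Among the nuclear lncRNAs, Malat1, which accumulates in nuclear speckles, had 0.837% for 5M-GS and 0.503% for 60M-GS. Neat1, the scaffold of paraspeckles, had 0 of 478 methylated calls in 5M-GS, which allows up to 0.628%, and 0.658% of 304 calls in 60M-GS. Miat, another nuclear RNA, stood at 0.387% and 0.652%. Host genes of microRNAs were as low. Mir9-3hg, which gives rise to the neural miR-9, had a cluster at 0.475% and 0.776% and another at 0.251% and 1.43%. Mir124a-1hg, a host of the neural miR-124, had clusters at 0.67% and 0.749%, then 1.47% and 0.208%. Mir22hg had clusters at 0.826% and 0.556%, then 0.375% and 0.352%, and Mir100hg went from 1.68% to 0.522%. Of these 7 host clusters none reached a call.

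Hosts of small nucleolar RNAs, genes whose introns are processed into those RNAs, had 6 clusters. Dancr had 0 of 917 methylated calls in 5M-GS, which allows up to 0.327%, and 0.536% in 60M-GS. Snhg5 stood at 0.294% and 0.221%, Snhg11 at 0.775% and 0.296%, Snhg15 at 0.601% and 0.276%, Snhg17 at 0.207% and 0.999% and Snhg20 at 0.251% and 0.472%. The developmental lncRNAs had levels of the same order. Sox1ot, which overlaps the neural gene Sox1, had clusters at 0.478% and 0.426%, then 0.57% and 1%, Pantr2, near Pou3f3, stood at 0.936% and 0.275%, and Tunar, a neural and pluripotency lncRNA, at 0.171% and 0.441%. Oip5os1, also called Cyrano, stood at 0.739% and 0.382%. On the list of p53 and oncogene-linked lncRNAs, Pvt1, the neighbour of Myc, stood at 0.229% and 0.593%. Dleu2 had clusters at 0.897% and 0.659%, then 0.691% and 0.359%. Lncpint, a p53 target, had 3 clusters, at 0% and 1.04%, then 1.21% and 0.188%, then 0.661% and 0.926%. The first of these had 0 of 590 methylated calls in 5M-GS, which allows up to 0.508%. Zim3, an imprinted gene, had the highest 5M-GS level of these genes, 1.72%, and stood at 0.924% in 60M-GS.

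The clusters with most CpGs after AY036118 were at Zfp652os, with 140 CpGs at 0.647% and 0.607%, and at 9430091E24Rik, with 137 CpGs at 0.375% and 0.501%.

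A share of the clusters had a developmental regulator as their nearest protein-coding gene. By a list of symbol prefixes for such transcription factor families, this held for 36 of 318 clusters, 11.3%, against 4.9% of all autosomal clusters and 7.11% of all 2741 clusters more than 5 kb from protein-coding genes. These nearest genes were 23 regulators. Pou3f3, a neural POU factor, Ptf1a, a pancreas and neural factor, and Pax2, a kidney and eye factor, were each nearest to 3 clusters. No limit was set on the distance to the nearest coding gene, which ran from 5.05 to 552 kb over the 318 clusters. None of the 36 was gained or lost, and 35 of them were under 10% in both tables. Set against 5.19% gained over all autosomal clusters, the lack of gains among 36 clusters is near the background. Gm36183, whose nearest coding gene is Id4, a regulator expressed in spermatogonial stem cells, stood at 0.163% and 0.448%. The median difference of the 36 was -0.0293 points, with a range of -1.96 to 19.3, the latter at Gm32496 near Hey1.

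The gained clusters were less CpG dense than the rest. Their median was 6.3 CpGs per 100 bp, or 5.9 without AY036118, against 7.91 in the clusters not called. Under 6 CpGs per 100 bp, 8 of 42 clusters were gained, 19%, against 14.8% of all autosomal clusters of that density. From 6 up to 8 the share was 4 of 126, 3.17% against 8.12%, and from 8 upward 4 of 150, 2.67% against 1.78%. The lower density of gained clusters was thus also found over all autosomal clusters, and it was not tested among the lncRNA ends alone.

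**Figure D5:**
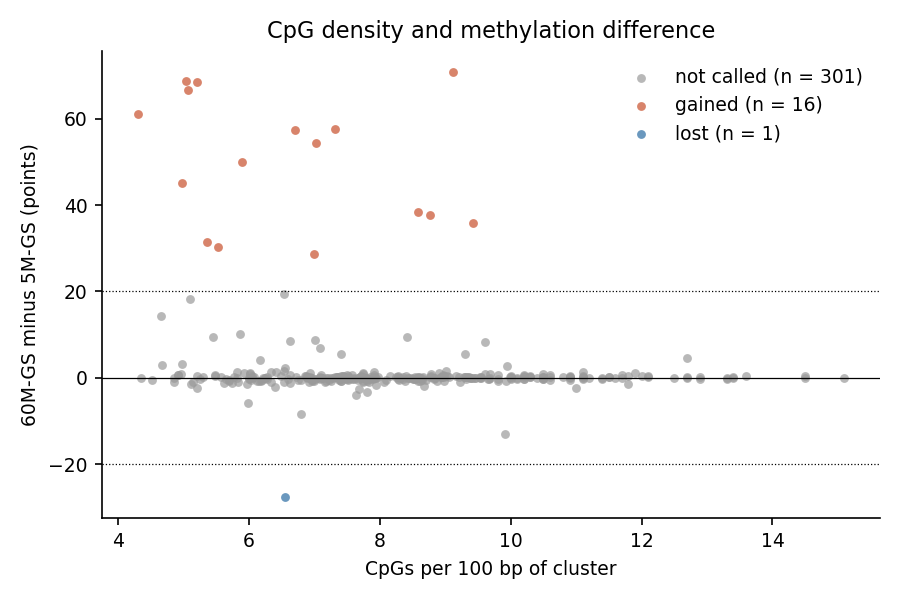
Difference in methylation level (60M-GS minus 5M-GS, points) of the 318 clusters against their CpGs per 100 bp, coloured by call, with dotted lines at 20 points either way. Of the 16 gained clusters, 8 lie under 6 CpGs per 100 bp and 4 at 8 or more.

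The promoter windows are described by their bases. Since they were taken for overlap with CpG-dense clusters, their higher CpG number, GC content and share of motifs that hold a CpG follow from that choice and are no result. RefSeq windows of 300 bases overlapped a cluster for 131 genes, in 139 windows, with a median GC content of 60.7% and 21 CpGs, against 53% and 7 over all 32619 mouse windows. Searched on both strands, the GC box GGGCGG was found in 66.2% of the 139 windows and 35.9% of all windows, the E-box CACGTG in 16.5% and 7.2%, and the cyclic AMP response element TGACGTCA in 4.32% and 1.8%. The E2F motif TTCCCGC was found in 7.91% and 4.63%. Other motifs were less frequent in the lncRNA windows: CCAAT was in 28.8% against 37.6%, the TATA motif TATAAA in 10.1% against 13.7%, and the MYB motif AACNGTC in 5.76% against 8.04%. These lower shares, too, come from windows taken for CpG density and are no result about lncRNA promoters. No motif contains another, and a match describes letters only. The 5 windows that overlap a gained cluster held the GC box in 2 and CCAAT in 2. Of the 139 windows, 115 shared no 30-base word with another gene's window and 4 shared one with 10 or more genes.

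Set beside other autosomal clusters, lncRNA ends far from coding genes lay between 2 extremes. Clusters within 1 kb of a protein-coding gene's end were gained in 146 of 12396 cases, 1.18%, and 98.6% of them were under 10% in 5M-GS. Clusters at lncRNA ends within 5 kb of a protein-coding gene were gained in 35 of 2184 cases, 1.6%. Clusters more than 5 kb from every annotated gene were gained in 173 of 1577 cases, 11%, and lost in 12, and only 37.3% of them were under 10% in 5M-GS. The stand-alone lncRNA ends had 5.03% gained and 93.1% under 10%. These shares were not tested against each other, and the sets differ in starting level and CpG density.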

How the data were processed

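DNA methylation was measured by PBAT whole-genome bisulfite sequencing in 2 samples each of 5M-GS and 60M-GS. Per the submitters' processing notes, reads were aligned with Bismark 0.10.0 to mm10. The authors deposited, as raw counts, the methylated and unmethylated calls of each CpG, with the replicates of an age pooled, and the percent of calls methylated. No source used here states how reads were trimmed, whether duplicate reads were removed or whether both strands of a CpG were merged. Cluster levels were computed from summed counts over the CpGs that had 5 or more calls in each table (usable CpGs), in clusters with at least 4 of them. Fisher's exact test (two-sided, scipy 1.17.1) was run on all 23248 clusters of chromosomes 1 to 19 and X, with Benjamini-Hochberg adjustment (statsmodels 0.14.6) over all of them. A cluster was called at an adjusted p under 0.05 and a difference of at least 20 points. The procedure was also run on simulated calls, drawn independently of each other at the real call numbers. Such a run cannot show the effect of calls that share a read or of spread between replicates. Genes, gene ends and promoter windows came from RefSeq tables of GRCm38.p6, without exon or repeat annotation. Named were the 12 clusters with the largest gains, the loss, the clusters at listed lncRNAs, the 3 on each side of the limit and the 3 with most CpGs. Other clusters were named after their values were seen. The clusters and gene lists were chosen with earlier results of these data known.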

Additional observations from a re-analysis of the deposited data

Results flagged for a closer look

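Chromosome X was outside the clusters described, and 13 clusters there met the same conditions of position and density. None was called. The cluster at Gm38438 (chrX:60898716-60899172, 5.51 kb from Sox3) stood out, with 1.31% of 306 calls methylated in 5M-GS against 20.9% of 335 calls in 60M-GS, which is 19.6 points higher (15.1 to 24.3, adjusted p = 9.65e-16 by Fisher's exact test). On divided calls its adjusted p by Fisher's exact test was 1.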

How the results depend on the processing

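Leaving out replicates was not possible, since each age is 1 pooled table. No paired analysis was possible because the replicates of each age are pooled in 1 table. Beside the reported 16 gains and 1 loss among 318 clusters, 5 gains were called among the 182 clusters of at least 30 CpGs and 8 among the 212 at a 5′ end. Gaps of up to 100 bp made 1076 clusters, of which 172 were gained (16%, against 11.8% of all autosomal clusters) and 15 lost. The number lost was 0 on divided calls, 2 at a limit of 10 points and 0 at 30 points. Gains numbered 11 on divided calls, 20 at 10 points and 15 at 30 points. The minimum of calls, the distances to lncRNA ends and to coding genes, removal of CpGs with over 100 calls, the mean of CpG levels, leaving out chromosomes 15, 16 and 17, and leaving out AY036118 (chosen after seeing the data) gave 11 to 17 gains and 1 loss each. Of the 191 values recomputed for called clusters, 183 kept the call and 8 lost it, under divided calls or the limit of 30 points. Of the 390 for clusters that the naming rule gave and that were not called, 4 became calls, namely Gm32496, Gm40056 and Gm31912 at 10 points and Gm32496 with the mean of CpG levels. At 10 points Gm34128 (gained) and Gm51701 (lost), named outside that rule, also became calls. No called cluster changed direction. A median of 21 to 22 calls per CpG makes single CpGs imprecise, so only levels summed over a cluster were tested.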
